A study of Mus musculus with 9 samples.

Results

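Transcripts of 9 genes of cytokine signalling were followed in T cells that had been driven towards Th17 or Treg fates. They comprise 5 STAT factors (Stat3, Stat4, Stat5a, Stat5b and Stat6) and 4 genes of the SOCS family of inhibitors (Socs1, Socs2, Socs3 and Cish). The genes were taken by name from the table of 24062 genes, and all 9 of 9 passed the low-count filter, that left 9310 genes (above 10 CPM in at least 1 library, where CPM are counts scaled to a common library total).

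The study sequenced RNA of 3 sorted populations, called SPR, DP and SPF, with 3 libraries for each and 9 in all. Naive CD4+ cells came from spleens of male F1 mice aged 6 to 10 weeks that carried a GFP reporter transgene for the Th17 fate and a Foxp3-IRES-mRFP knock-in, both heterozygous, and all cultures had anti-CD3 anti-CD28 activation beads for 72 hours. SPR cells (GFP reporter only) and DP cells (both reporters) were sorted from the Th17 culture, which held 5 ng/ml TGFβ plus 20 ng/ml IL6. SPF cells (Foxp3 reporter only) were taken from a Treg culture that held 10 ng/ml TGFβ plus 5 ng/ml IL2. Sorted population, cytokines and TGFβ dose differ together in each comparison with SPF and cannot be told apart. The sort rested on fluorescent reporters, and the GFP reporter is a transgene, so that GFP stands for the fate it marks only indirectly.

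STAT factors are latent transcription factors that JAK kinases phosphorylate at cytokine receptors. IL6 acts mainly through STAT3, which is needed for the Th17 fate, and IL2 acts through STAT5A and STAT5B, which support Foxp3 and restrain the Th17 program. STAT4 serves IL12 and the Th1 fate, and STAT6 serves IL4 and the Th2 fate. SOCS proteins close the loop: STATs induce their genes, and the proteins block the receptor or the JAK. SOCS3 binds the IL6 receptor subunit gp130, SOCS1 inhibits JAKs and restrains interferon signalling, and CIS (the product of Cish) and SOCS2 are known products of STAT5 activity. A transcript level says nothing of how much of a STAT is phosphorylated.

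A STAT binding motif near the start site was looked for as background to the SOCS genes. The consensus TTCNNNGAA, which is its own reverse complement and so reads the same on both strands, was searched in RefSeq promoter windows of 300 bases (250 before the start site to 50 after it, GRCm38.p6). Windows were found for 8 of the 9 members, all except Socs2, and 2 members held the motif, Socs3 once and Cish in 2 copies. Of all 32851 windows, 8.3% held it at least once and 0.457% held 2 or more. The stretches are printed with the motif in capitals, on the strand of the gene, because they are the members in whose windows it was found. Of these genes, Socs3 was called against SPF and Cish in no comparison. From the RefSeq start site, the motif of Socs3 begins at position -154 and the first motif of Cish at position 1. The stretches lie at chr11:117969502-117969530 (minus strand) and chr9:107296654-107296683 (plus strand). Both are inside the gene spans of the GENCODE annotation used below, which begin further upstream. A match of letters is no evidence of binding, and the windows without a match show only that these letters are not in them.
Socs3: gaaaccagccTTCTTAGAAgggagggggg
Cish: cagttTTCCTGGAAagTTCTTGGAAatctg

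Total counts per library ran from 1495152 to 3759662, so that a single count was worth 0.266 to 0.669 CPM and no member rested on fewer than 128 counts in any library. Foxp3, a gene of the sort, followed the labels, at 6.38 to 7.33 CPM in SPR, 77.2 to 130 CPM in DP and, highest, 209 to 244 CPM in SPF. The summed level of 7 pan T cell genes was 3836 to 5654 CPM. Markers of other cell types were low, at most 70.25 CPM for the sum of 7 B cell genes and 11.3 CPM for 8 myeloid genes (Csf1r and Cd14 at 0), both highest in SPF. DP replicates 2 and 3 stood apart in the mitochondrial ribosomal RNA mt-Rnr2 (571.7 and 1712 CPM, against 25.0 to 215 CPM elsewhere).

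Socs3, the feedback inhibitor of the IL6 receptor, was higher in SPR and in DP than in SPF. Its level was 553, 405 and 494 CPM in SPR replicates 1, 2 and 3, 1063, 619.5 and 691 CPM in DP, and 152, 258 and 241 CPM in SPF. The ranges of the populations did not overlap, with every DP library above every SPR library and every SPR library above every SPF library. The mean was 484 ± 74.3 CPM for SPR, 791 ± 238 CPM for DP, and for SPF 217 ± 57.3 CPM (SD, n = 3 per group). Against SPF, the log2 fold change was 1.13 in SPR (SE 0.262, adjusted p = 0.0145 from edgeR) and 1.78 in DP (SE 0.267, adjusted p = 0.00266). The call in SPR was lost by a small margin without SPR replicate 1 (log2 fold change 1.03, adjusted p = 0.0509 from edgeR), while that in DP held whichever library was left out. In bulk RNA, more cells with the transcript and more transcript per cell cannot be told apart.

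**Figure D1:**
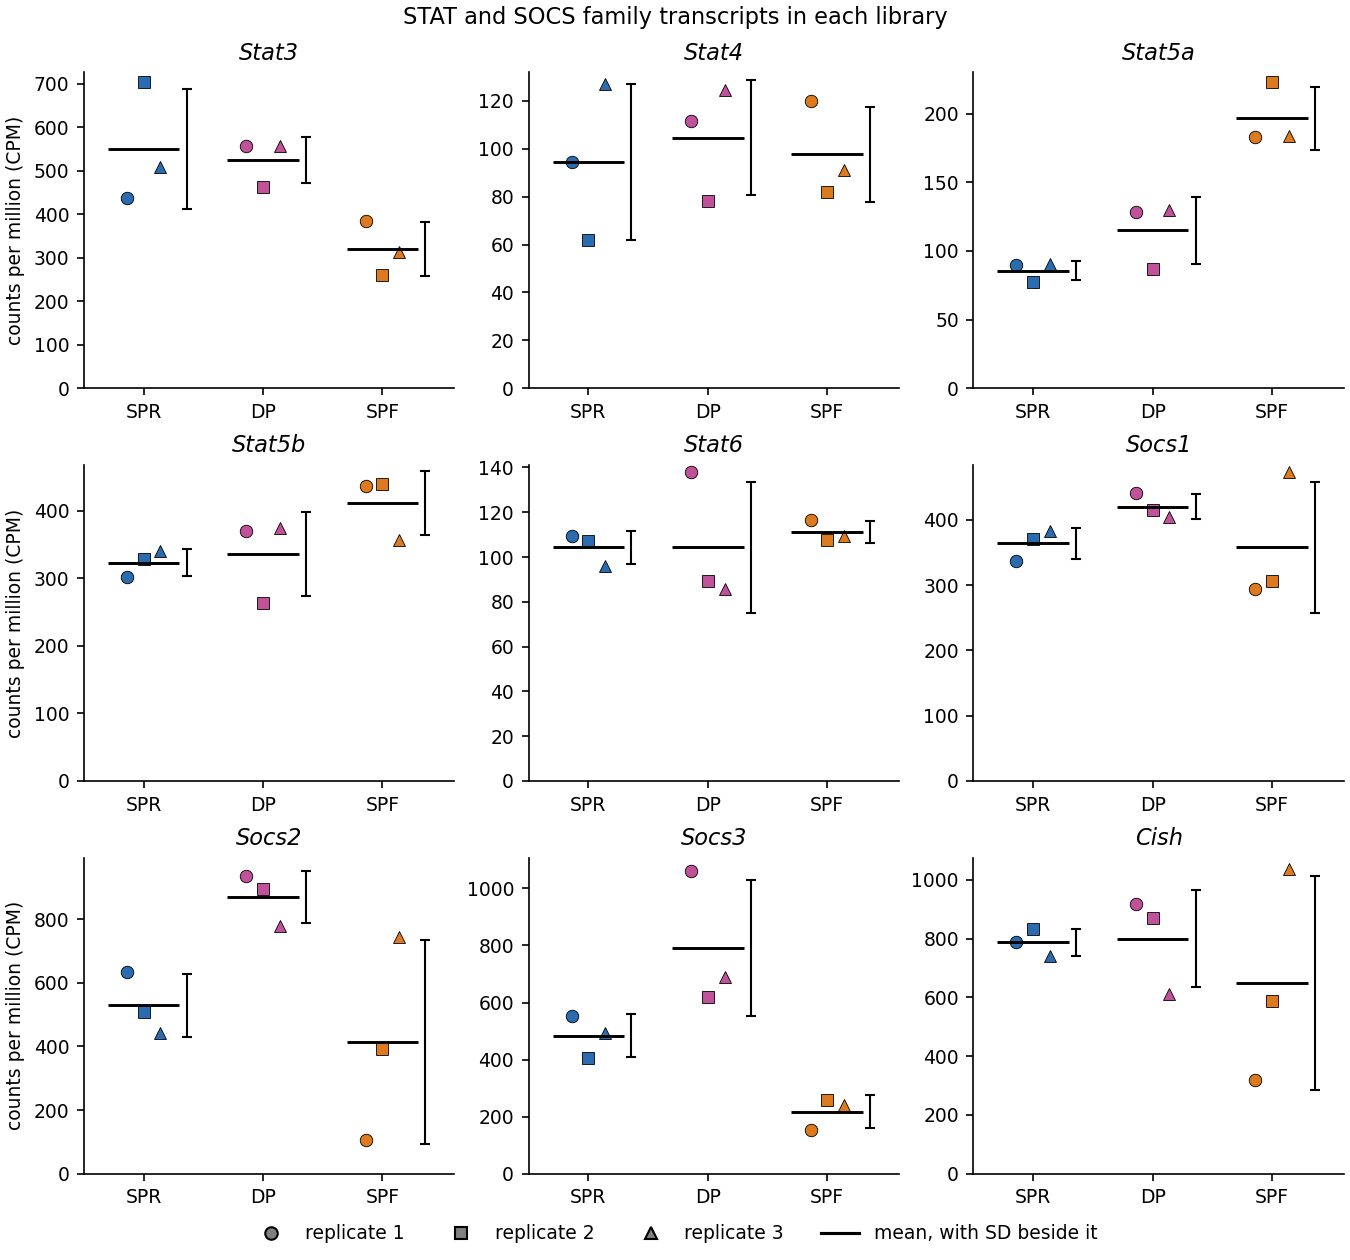
Level of each of the 9 transcripts in CPM (vertical axes, from 0) in the SPR, DP and SPF libraries. Points are single libraries, with the shape giving the replicate number, horizontal bars are means and error bars are SD over 3 libraries. Socs3 separates all 3 populations, Stat5a is highest in SPF, and Socs2 and Cish spread widely among the SPF libraries.

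Stat3, the factor that IL6 activates, was higher in SPR than in SPF, and its level in DP was close to that in SPR. Its level was 438, 705 and 509 CPM in SPR, 557, 464 and 556 CPM in DP, and 384, 261 and 315 CPM in SPF. All SPR and DP libraries lay above all SPF libraries, and the SPR and DP ranges overlapped. The log2 fold change of SPR over SPF was 0.77 (SE 0.211, adjusted p = 0.0314 from edgeR), and that of DP over SPF, 0.65, did not pass the test (SE 0.211, adjusted p = 0.0664, and 0.0285 from DESeq2). The SPR call was not firm: the adjusted p from edgeR was 0.13 without SPR replicate 2, which had the highest level, 0.0658 without SPR replicate 3, 0.121 without SPF replicate 2, 0.0565 without SPF replicate 3, 0.0562 without DP replicates 2 and 3 (1 DP library left in the fit), and 0.0559 when only SPR and SPF libraries were fitted. The fold change remained between 0.56 and 0.91 whichever library was left out.

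Stat5a ran in the opposite direction. It encodes a STAT that IL2 activates, and its level was 89.7, 77.5 and 90.2 CPM in SPR, 128, 87.0 and 129.8 CPM in DP, and 183, 223 and 184 CPM in SPF. Every SPF library was above every library of the Th17 culture, and DP replicate 2 alone lay within the SPR range. The log2 fold change was -1.22 in SPR against SPF (SE 0.197, adjusted p = 0.0023 from edgeR) and -0.85 in DP against SPF (SE 0.196, adjusted p = 0.0186). The former was called whichever library was left out, and the latter was lost without DP replicate 2 (adjusted p = 0.0596 from edgeR), and without SPF replicate 2 (0.0744). Without DP replicates 2 and 3 together it was also not called (log2 fold change -0.72, adjusted p = 0.224), but this leaves 1 DP library, which is assumed to vary like the other groups.

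Stat5b, the close relative of Stat5a with a similar protein, differed less. Its level was 301, 328 and 340.2 CPM in SPR, 371, 264 and 374 CPM in DP, and 437, 439.6 and 357 CPM in SPF. SPF libraries were above all SPR libraries and overlapped with DP. The log2 fold change of -0.37 in SPR (95% interval -0.78 to 0.041, adjusted p = 0.197 from edgeR) and of -0.36 in DP against SPF (95% interval -0.78 to 0.047, adjusted p = 0.215) did not pass the test.

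The 3 genes share a stretch of chromosome 11, and the positions bear on how the counts can be read. In the GRCm38 (mm10) annotation of GENCODE, Stat5b lies from 100780731 to 100850724 on the minus strand, Stat5a from 100859351 to 100885169 on the plus strand and Stat3 from 100885098 to 100939540 on the minus strand. Stat5a and Stat3 thus meet tail to tail and overlap by 72 bases at the 3′ ends, the part of a transcript that MARS-seq counts. Whether the counting used strand is unknown here, so reads from that overlap could not be assigned without strand, and the part of this in the levels was not tested. Stat5a and Stat5b share 836 of the 3858 different 31-base words of the longest Stat5a transcript, but no such word from the last 1000 bases of either gene's longest transcript was found in the other's.

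Ratios taken within a library do not depend on its depth. Those below reuse the Stat3, Stat5a and Stat5b counts, and the SPR and DP ranges of Stat3 and Stat5a were already apart from SPF. They are thus no separate support for the contrast between the cultures. The ratio of Stat3 counts to Stat5a plus Stat5b counts was 1.12, 1.738 and 1.183 in SPR, 1.116, 1.323 and 1.105 in DP, and 0.619, 0.393 and 0.581 in SPF. SPR and DP overlapped, and both lay above SPF without overlap. Of the counts of both Stat5 genes, Stat5a made up 22.9%, 19.1% and 20.95% in SPR, 25.7%, 24.8% and 25.8% in DP, and 29.5%, 33.6% and 33.99% in SPF. Here the ranges of all 3 populations were apart, with DP in between. For each pair of groups that did not overlap, the exact permutation test (two-sided) gave p = 0.1, the smallest that 3 libraries against 3 allow, and these ratios were chosen after the values were seen. A ratio of counts compares groups, not the amounts of different transcripts.

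**Figure D2:**
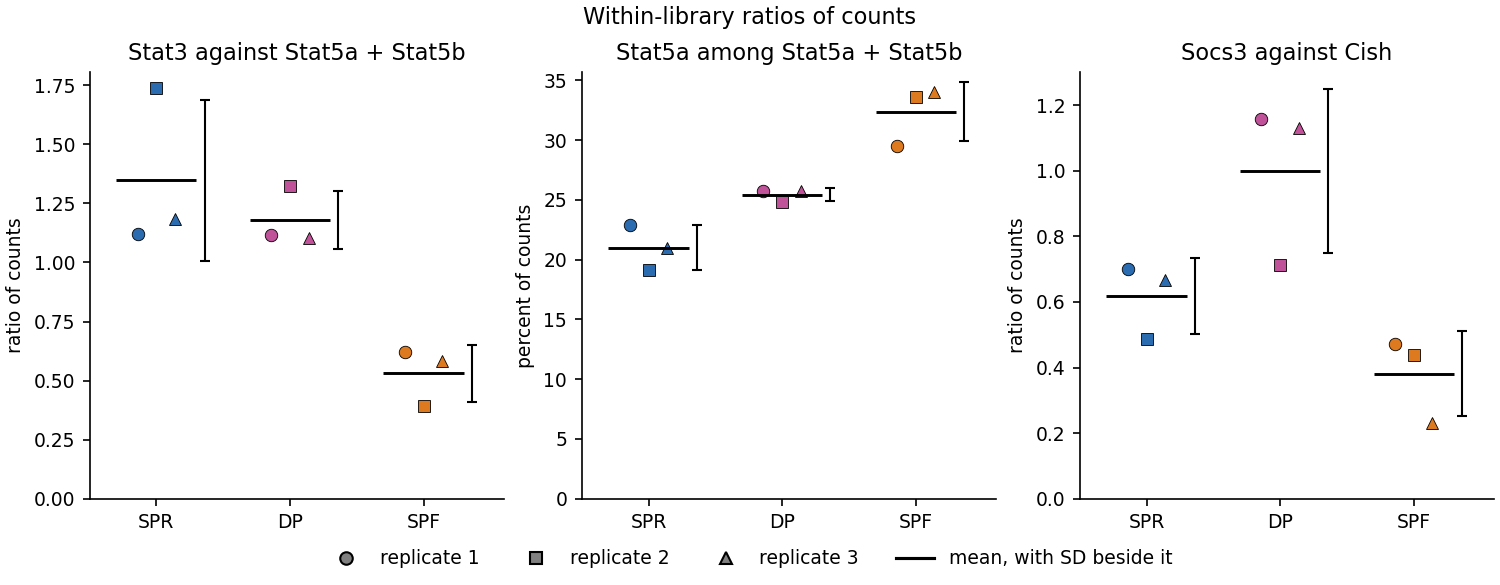
Ratio of Stat3 counts to Stat5a plus Stat5b counts (left), percent of Stat5a among the counts of both Stat5 genes (middle) and ratio of Socs3 to Cish counts (right) in each library of SPR, DP and SPF, with axes from 0. Points are libraries with the shape giving the replicate number, bars are means and error bars SD over 3 libraries. The Stat5a percentage is lowest in SPR (19.1 to 22.9), higher in DP (24.8 to 25.8) and highest in SPF (29.5 to 34.0).

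Stat4 and Stat6, which serve the Th1 and Th2 cytokines, were at similar levels in the 3 populations. Stat4 ranged from 62.0 to 127 CPM in SPR, 78.1 to 124 CPM in DP and 81.9 to 119.8 CPM in SPF. Stat6 ranged from 96.0 to 109.6 CPM in SPR, 85.6 to 138 CPM in DP and 107 to 117 CPM in SPF. The ranges overlapped in every comparison, and neither gene was called. For SPR over SPF, the 95% interval of the log2 fold change was -0.66 to 0.55 for Stat4 and -0.52 to 0.29 for Stat6, so that changes of less than that size could have been missed. Summed over the 5 STAT members, the level ran from 1034 to 1279 CPM in SPR, 982 to 1305 CPM in DP and 1056 to 1240 CPM in SPF. Stat4 lies on chromosome 1 from 51987148 to 52107189 and Stat6 on chromosome 10 from 127642986 to 127660957, where Nab2 overlaps it on the opposite strand (up to 66.9 CPM).

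Socs2, an inhibitor known for its action on growth hormone signalling and for its induction by STAT5, was highest in DP. Its level was 635, 508 and 443 CPM in SPR, 936, 893 and 779 CPM in DP, and 106, 390.3 and 744 CPM in SPF. Every DP library was above every other library, and the SPF libraries ranged from far below to above all SPR libraries. With that spread in SPF, the log2 fold change of DP over SPF, 1.00, did not pass the test (SE 0.491, adjusted p = 0.199 from edgeR), and it turned on single SPF libraries, at 1.70 without SPF replicate 3 (adjusted p = 0.0239) and 0.53 without SPF replicate 1 (0.224). For SPR over SPF it was 0.33 (SE 0.487, adjusted p = 0.683 from edgeR).

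Cish encodes CIS, which dampens STAT5 signals at the IL2 receptor and, separately, signalling of the T cell receptor. Its level was 789.6, 833 and 741 CPM in SPR, 918, 870.4 and 611 CPM in DP, and 320.3, 588 and 1039 CPM in SPF. The SPF libraries held both the lowest and the highest value of the series, and the populations overlapped. The log2 fold change against SPF was 0.26 in SPR (SE 0.336, adjusted p = 0.639 from edgeR) and 0.22 in DP (SE 0.337, adjusted p = 0.688), and it turned negative in both without SPF replicate 1 (-0.078 and -0.11).

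Socs1, an inhibitor of JAK kinases, was 338, 371 and 384 CPM in SPR, 441, 416 and 404 CPM in DP, and 294, 307 and 474 CPM in SPF. The DP libraries lay above the SPR libraries by a small margin, and the SPF libraries lay on both sides. It was called in no comparison, with a log2 fold change over SPF of 0.16 in DP (SE 0.195, adjusted p = 0.617 from edgeR). Socs1 lies on chromosome 16 from 10782240 to 10785536, Socs2 on chromosome 10 from 95385362 to 95417180, Socs3 on chromosome 11 from 117966079 to 117970047 and Cish on chromosome 9 from 107296026 to 107302784, where Gm17040 (up to 7.32 CPM) and Gm17041 overlap it on the opposite strand.

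Among the SPF libraries the spread of Socs2 and Cish was large for genes of this level. The highest SPF library exceeded the lowest 7.04-fold for Socs2 and 3.24-fold for Cish, where the median over 1848 genes with at least 100 CPM in SPF was 1.35-fold. Of these genes, 0.649% were as uneven as Socs2 and 2.87% as uneven as Cish. In SPR the same measure was 1.43-fold for Socs2 and 1.12-fold for Cish, and in DP 1.2-fold and 1.5-fold. Both genes, and Socs1, were highest in SPF replicate 3 and lowest in SPF replicate 1, an order seen in 20.7% of all genes tested.

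Some other genes known as targets of STAT5 in T cells had the same order among the SPF libraries. It held for 10 of 18 in the list, against 20.7% of all genes tested. Of these 10, 8 (Il2ra, Osm, Lta, Bcl2, Ccnd3, Lif, Tnfrsf4 and Cdkn1a) were at least 2-fold higher in SPF replicate 3 than in replicate 1, against 8.67% of all genes tested. Pim2 (64.4, 52.1 and 30.7 CPM in SPF replicates 1, 2 and 3) and Ctla4 (295, 219 and 203 CPM), of the same list, ran the opposite way. The order was seen in other lists too, in 4 of 9 PIAS, phosphatase and adaptor genes (none by 2-fold) and 2 of 4 cytokine genes (Lif and Osm, which are also in the STAT5 list). It was seen in 4 of 18 receptor chains (Il2ra and Il10ra by at least 2-fold), in 1 of 15 STAT3 targets (Junb) and in 0 of 4 JAK genes. Il2ra, the high-affinity subunit of the IL2 receptor, stood at 86.65, 102.3 and 239 CPM in SPF replicates 1, 2 and 3, and the cytokine gene Osm at 55.8, 86.1 and 256.5 CPM. The SPF libraries differed little in depth (2149540 to 2204236 counts) and in Foxp3. The summed markers of CD8 and NK cells were 59.4, 28.4 and 19.05 CPM in the same libraries, those of myeloid cells 11.3, 6.51 and 5.58 CPM, and those of erythroid cells 0, 8.84 and 19.98 CPM. The part of these in the spread was not tested.

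**Figure D3:**
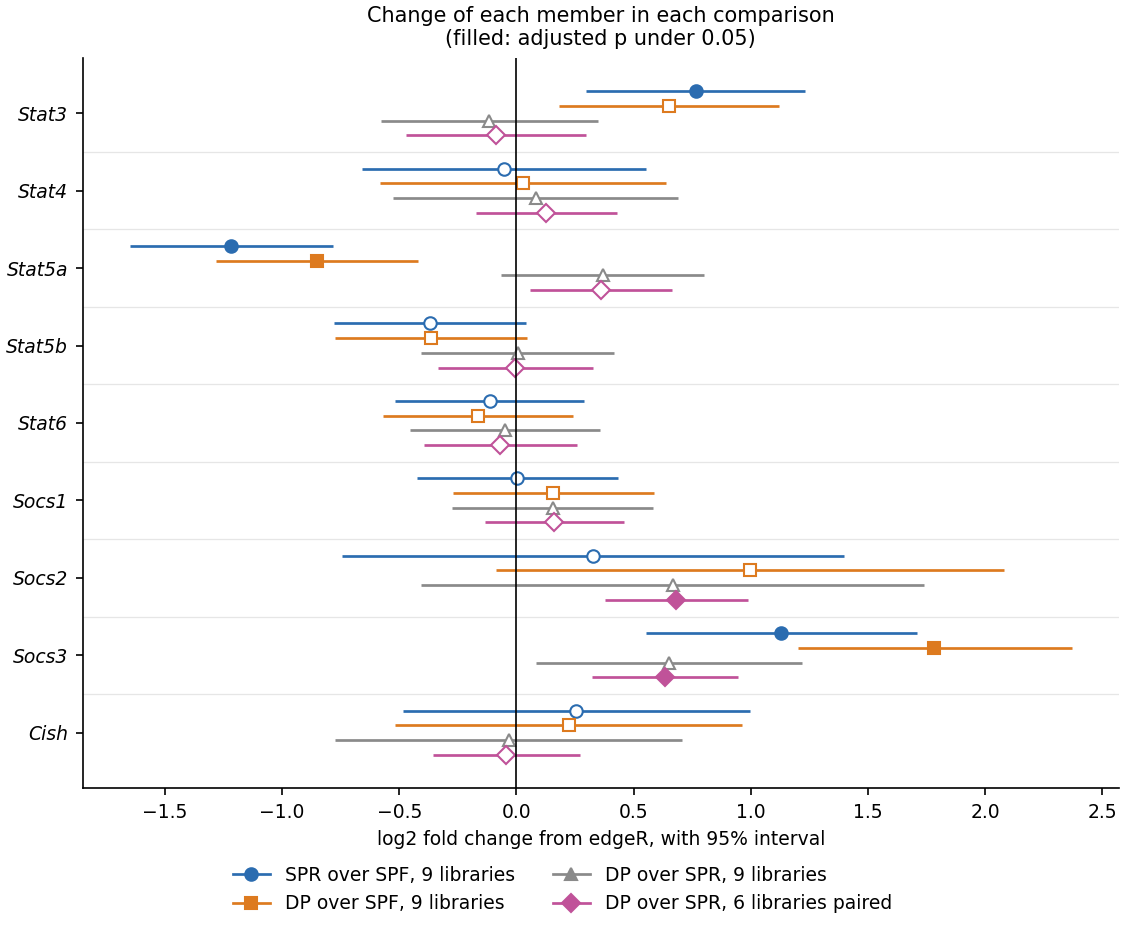
Log2 fold change of each member (horizontal axis) from edgeR with its 95% interval, for SPR over SPF, DP over SPF and DP over SPR in the fit of 9 libraries, and for DP over SPR in the paired fit of 6 libraries. Filled symbols mark an adjusted p under 0.05: Stat3, Stat5a and Socs3 for SPR over SPF, Stat5a and Socs3 for DP over SPF, and Socs2 and Socs3 in the paired fit.

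Over the members, edgeR called 3 of 9 between SPR and SPF, where 16.7% of all genes tested were called. Of these, 2 were higher in SPR (9.14% of all genes) and 1 was lower (7.58%). Between DP and SPF it called 2 of 9, against 13.7% of all genes, 1 higher in DP (7.55% of all genes) and 1 lower (6.18%). At an unadjusted p under 0.05 there were 3 of 9 members in each comparison, against 32.1% and 30.4% of all genes. Ranges did not overlap for 4 of 9 members in SPR against SPF (Stat3, Stat5a, Stat5b and Socs3; 36.9% of all genes) and for 4 of 9 in DP against SPF (Stat3, Stat5a, Socs2 and Socs3; 31.6% of all genes). Both comparisons use the same SPF libraries.

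DP and SPR cells came from the same Th17 culture conditions, and their comparison asks what goes with Foxp3 at the same cytokine exposure. In the fit of 9 libraries none of the 9 members was called, where 0.0107% of all genes was (only Foxp3 itself). At an unadjusted p under 0.05 there was 1 member, Socs3 (log2 fold change 0.65, SE 0.259, adjusted p = 0.693), against 6.57% of all genes, and DESeq2 called no member either. Same-numbered SPR and DP libraries shifted jointly from their group means (r = 0.222, 0.401 and 0.407 across genes for numbers 1, 2 and 3), so a fit of these 6 libraries with the number as a block was also read.

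In this paired fit, Socs2 and Socs3 were higher in DP, and these were the 2 of 9 members called, against 3.48% of all genes (1.97% higher in DP). For Socs2 the log2 fold change was 0.68, with SE 0.139 and an adjusted p of 0.0241 from edgeR, and pair differences of 0.56, 0.81 and 0.81. For Socs3 it was 0.63, with SE 0.143 and an adjusted p of 0.0342, and pair differences of 0.94, 0.61 and 0.48. Neither call stood without pair 1 (adjusted p = 0.0505 for Socs2 and 0.176 for Socs3) or without pair 3 (0.188 and 0.13), and both stood without pair 2 (0.0114 and 0.00703). With the block in a fit of all 9 libraries, neither was called (0.828 and 0.603 from edgeR). DP replicates 2 and 3, which were high in mt-Rnr2, showed a larger difference in Socs2 than replicate 1 and a smaller one in Socs3.

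**Figure D4:**
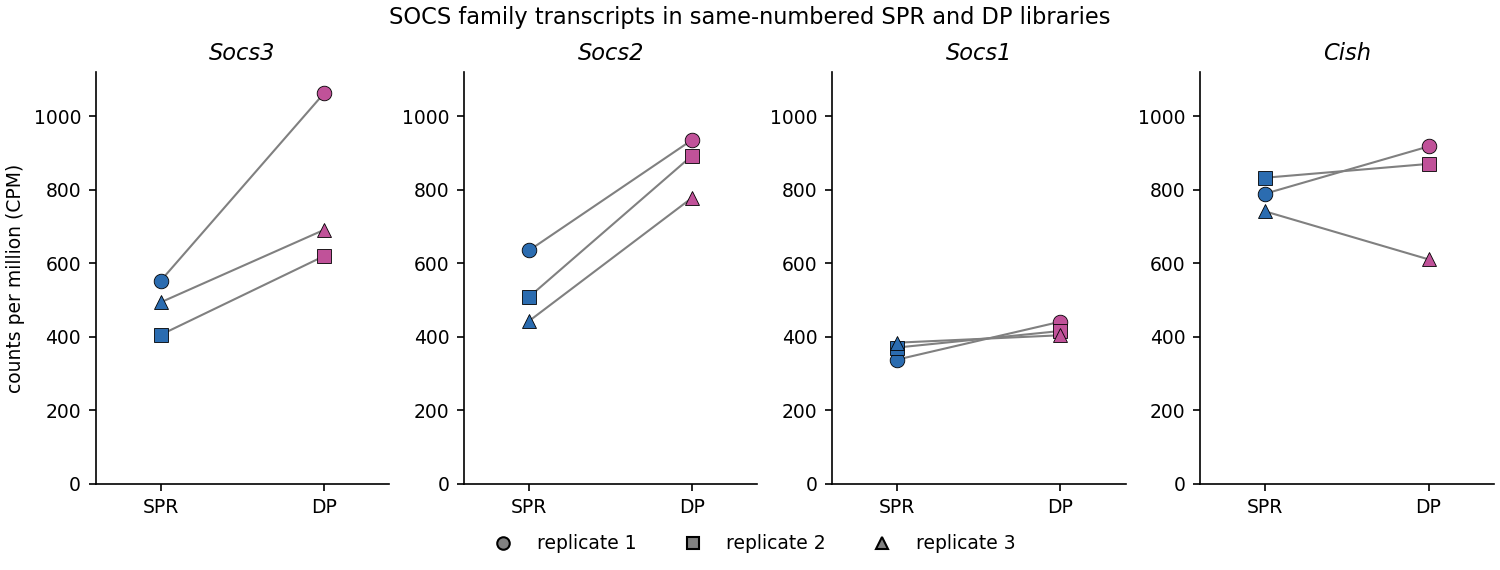
Level of Socs3, Socs2, Socs1 and Cish in CPM (vertical axes, from 0) in SPR and DP libraries, with lines joining libraries of the same replicate number. Socs3, Socs2 and Socs1 are higher in DP in 3 of 3 pairs, and Cish in 2 of 3.

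The other members were not called between SPR and DP. Stat5a was higher in DP in 3 of 3 pairs, by 0.52, 0.17 and 0.53 on the log2 scale, and did not pass the test (0.36 with SE 0.14 and an adjusted p of 0.227 from edgeR in the paired fit). Socs1 was higher in 3 of 3 pairs as well (0.38, 0.17 and 0.074; adjusted p = 0.653). In all, 4 of 9 members had the same direction in 3 of 3 pairs, against 37% of all genes, and 3 of 9 (the Socs1, Socs2 and Socs3 genes) had ranges without overlap, against 14.5% of all genes. The paired 95% interval was -0.36 to 0.27 for Cish, -0.33 to 0.33 for Stat5b and -0.47 to 0.30 for Stat3. Pair 2 ran against the others for Stat3 (-0.60, against 0.34 and 0.13) and Stat5b (-0.32, against 0.30 and 0.14). The sum of the 4 SOCS family levels was 2165 ± 133 CPM in SPR and 2880 ± 442 CPM in DP (SD, n = 3 each). The SPR and DP ranges of the sum did not overlap (exact permutation test, two-sided p = 0.1, the smallest possible). The sum reuses the levels of Socs1, Socs2 and Socs3, whose ranges were already apart, so it is no separate support. In SPF the sum was 872, 1544 and 2497 CPM and overlapped with both SPR and DP.

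Socs3 and Cish were also set against each other within each library. The ratio reuses the Socs3 counts, whose ranges were already apart, so it is no separate support. The ratio of Socs3 to Cish counts was 0.70, 0.487 and 0.667 in SPR, 1.158, 0.712 and 1.131 in DP, and 0.473, 0.439 and 0.232 in SPF. The populations did not overlap, though DP replicate 2 and SPR replicate 1 were close and so were SPR replicate 2 and SPF replicate 1. The exact permutation test (two-sided) gave p = 0.1, the smallest possible, for each of the 3 pairs of groups.

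Placed on a scale on which 1 is the SPR level and -1 the SPF level, from group means of log2(CPM + 1), the 3 members called between SPR and SPF took different places in DP. Stat3 stood at 0.888 (0.581 to 1.51 with any single library omitted), close to SPR, although DP replicate 2 by itself was at 0.435. DP replicates 1 and 3 were each at 1.11, and the Stat3 call between SPR and SPF, which sets this scale, was not firm. Stat5a stood at 0.325 (0.0088 to 0.491), between the populations, although DP replicate 2 by itself was at 0.959. Socs3 stood at 2.15 (1.75 to 2.45), beyond the SPR level on the side away from SPF.

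Upstream of the STATs, Jak2 and Jak3 were higher in both populations of the Th17 culture than in SPF. Of 4 JAK genes, 2 were higher and 1 was lower in SPR than in SPF, against 9.14% and 7.58% of all genes, with a median log2 fold change of 0.25 against 0.001 over all genes. In DP, 2 were higher and none was lower than in SPF, against 7.55% and 6.18% of all genes, with a median of 0.10 against 0.0096. Jak2, which pairs with gp130, averaged 187.5 CPM in SPR (SD 22.8), 153 CPM in DP (SD 16.7) and 87.5 CPM in SPF (SD 16.2). Against SPF it was called in SPR, at a log2 fold change of 1.08 with an adjusted p of 0.00219 from edgeR, and in DP, at 0.73 with an adjusted p of 0.02. Jak3, which serves the common gamma chain of the IL2 receptor, was called in the same direction, at 0.98 in SPR (adjusted p of 0.00588) and 0.73 in DP (0.0294). Jak1 was lower in SPR, at -0.72 with an adjusted p of 0.0337 from edgeR, a call lost without SPR replicate 2 (0.131), and its value of -0.53 in DP did not pass the test (0.108). The DP calls of Jak2 and Jak3 were lost without SPF replicate 2 (0.0839 and 0.104).

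Among 18 receptor chains tested of 22, 5 were higher and 4 lower in SPR than in SPF (9.14% and 7.58% of all genes), with a median log2 fold change of -0.25. In DP, 5 were higher and 1 lower than in SPF (7.55% and 6.18% of all genes), with a median of 0.086. Il12rb2 and Il12rb1, the chains of the IL12 receptor that feed STAT4 (Il12rb1 also serves IL23 and STAT3), were among those higher in both. Il12rb2 stood at 31.1 to 64.6 CPM in SPR and 20.1 to 42.1 CPM in DP, and at 2.72, 0 and 0.465 CPM in SPF, too few counts for a fold (adjusted p of 0.000445 and 0.00118 from edgeR). Il12rb1 had a log2 fold change of 3.10 in SPR and 2.81 in DP (0.00191 and 0.00498), at 9.53, 4.65 and 2.79 CPM in SPF. Il12rb1 and Il12rb2 were thus under 10 CPM in every SPF library and passed the filter only through the Th17 culture. The counts and medians of this list against SPF therefore lean towards higher levels in that culture through them. Il6st, which encodes gp130 and thus the site where SOCS3 acts, averaged 58.5 CPM in SPR (SD 10.8), 181 CPM in DP (SD 67.1) and 127 CPM in SPF (SD 10.5). It was lower in SPR than in SPF, at -1.14 with an adjusted p of 0.0115 from edgeR, a call lost without SPR replicate 2 (0.052). In the paired fit, 4 of the 18 chains were higher and 1 was lower in DP than in SPR, against 1.97% and 1.51% of all genes. Il6st was among the 4, at 1.55 with an adjusted p of 0.000212, and it was called whichever pair was left out. The fit of 9 libraries did not call Il6st between DP and SPR (adjusted p = 0.0879 from edgeR). Ifngr1 and Il6ra were also higher and Il7r was lower in the paired fit, calls lost with 1 pair left out (adjusted p up to 0.231, 0.272 and 0.113). The 1 chain lower in DP than in SPF was Il2rb, shared by the IL2 and IL15 receptors, at -1.01 with an adjusted p of 0.00713 from edgeR (named after its value was seen). Il2ra was higher in DP than in SPF, at 1.28 with an adjusted p of 0.0477, a call lost without DP replicate 2 (0.173), and higher than in SPR in the paired fit (0.65, adjusted p = 0.0376), a call lost without pair 1 (0.214).

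Genes known as STAT3 targets in T cells were mostly higher in both populations of the Th17 culture. Of 15 tested, 11 were higher and none was lower in SPR than in SPF (median log2 fold change 2.49). In DP, 12 were higher and none was lower than in SPF (median 2.41). Over all genes the medians were 0.001 and 0.0096, and 9.14% and 7.55% were called higher. Il17a, Il17f, Il21, Il24 and Fosl2 stayed under 10 CPM in every SPF library. They passed the filter only through the Th17 culture, so these counts and medians lean towards higher levels there. Between DP and SPR, the paired fit found that 3 of the 15 were lower in DP (Il17a, Il17f and Il24), against 1.51% of all genes. It found 1 higher, against 1.97% of all genes (Bcl6, a call lost with 1 pair left out, at an adjusted p of up to 0.115 from edgeR). The median over the 15 was 0.027, against -0.0068 over all genes, so the list as a whole did not shift. Of 18 genes known as STAT5 targets, 4 were higher and 1 was lower in SPR than in SPF (median 0.57), and 5 were higher and 1 was lower in DP than in SPF (median 0.37), where 16.7% and 13.7% of all genes were called. In the paired fit, 4 of the 18 were higher and 1 was lower in DP than in SPR (median -0.18), against 3.48% of all genes. The lower gene of the paired fit was Il10, and Foxp3, on which the cells were sorted, was among the 4 higher. Against SPF, the lower gene was Foxp3 in both SPR and DP. The genes higher in both than in SPF included Il10, Gzmb and the kinase gene Pim2. Il10 and Gzmb were at under 2 CPM in every SPF library. They passed the filter only through the Th17 culture, so the counts and medians of the STAT5 list against SPF also lean towards higher levels there. Pim2 was higher in SPR at a log2 fold change of 2.05 with an adjusted p of 0.00045 from edgeR.

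Other restraints on STATs were not called, but the lists are short. None of 9 PIAS, phosphatase and adaptor genes tested of 10 was called in any comparison by edgeR. The same held for 4 further STAT and SOCS genes tested of 5 (Stat2, Socs4, Socs6 and Socs7). Over all genes, 16.7% were called in SPR against SPF, 13.7% in DP against SPF and 0.0107% in DP against SPR (3.48% in the paired fit). With so few genes, no call is not a result about them. Pias3 and Pias1 came near the threshold in SPR against SPF (adjusted p = 0.0617 and 0.0703 from edgeR). Socs4, Socs6 and Socs7 averaged at most 14.4 CPM in any population.

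Some genes followed the members closely over the 9 libraries. Among 6343 other genes that averaged 20 CPM or more, the highest Pearson's r of log2(CPM + 1) with Socs3 were those of Emp1, a membrane protein gene (0.974), Tsg101, of the endosomal sorting machinery (0.97), and Sra1 (0.96). Emp1 averaged 92.3 CPM in SPR and 222 CPM in DP, but 15.7 CPM in SPF. With Stat5a they were Rab37 (0.988), Gata3, the Th2 factor also found in Treg cells (0.984), and Ntn5 (0.98), and with Stat3 the chromatin remodeller gene Chd7 (0.947), Dgat1, an enzyme of triglyceride synthesis (0.945), and Paxbp1 (0.94). Within the SOCS family, r was 0.885 for Socs2 and Cish, 0.794 for Socs1 and Cish, 0.789 for Socs1 and Socs2, 0.782 for Socs2 and Socs3, 0.567 for Socs3 and Cish and 0.534 for Socs1 and Socs3, and Stat3 and Stat5a had an r of -0.793. These values describe 9 libraries of 3 populations, 6 of them taken as pairs by replicate number, and carry no test.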

How the data were processed

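MARS-seq 3′ libraries of 9 sorted samples were mapped to mm10 by the authors. They deposited a table of unnormalized counts for each gene, and the submitters' processing notes name cutadapt, STAR, SAMtools and HTSeq. Versions, annotation, strand setting and use of molecular identifiers are unknown here. Groups and replicate numbers are those of the labels, which call the replicates biological without saying whether cultures shared animals. An unnamed line of totals and 1 column without a library were left out.

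CPM were computed by column total. A gene needed over 10 CPM in 1 or more libraries to enter the quasi-likelihood test of edgeR 4.0.16 (R 4.3.3), fitted on all 9 libraries with TMM factors of 0.9502 to 1.053. Calls are Benjamini-Hochberg adjusted p under 0.05 over all 9310 genes. Replicate numbers were taken to pair libraries where deviations from group means correlated above 0.1 for all 3 numbers. This held for SPR and DP, and not with SPF (-0.151 to 0.124). The paired fit holds the 6 SPR and DP libraries, with 2 residual degrees of freedom.

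Other settings tried were DESeq2 1.42.0, RLE factors or none, no low-count filter, filterByExpr, fits restricted to the groups compared, a replicate block, omission of mitochondrial-encoded genes, another pseudocount, omission of each library and, added after the data were seen, of DP replicates 2 and 3. Genes to name were set as all members, up to 4 called genes with the largest change for each pathway list, and the 3 genes most correlated with each called member. Further list genes, such as Socs4 and those in the order of the SPF libraries, were named after their values were seen, and not every gene within the rule is described. The members and lists were chosen with earlier results of these data known. Some genes are not reported here and were left out of the list counts.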

Additional observations from a re-analysis of the deposited data

How the results depend on the processing

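The 9 members gave 27 changes over the 3 comparisons. Of the 5 called, Stat5a in SPR against SPF and Socs3 in DP against SPF were called under every alternative run, and of the 22 not called, 18 passed the threshold under none. Each member had at least 128 counts in every library. Causes of the following shifts were not tested.

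Without the low-count filter, 2479 genes were called between SPR and SPF, 2137 between DP and SPF (4 members) and 211 between DP and SPR. For DP against SPR, DESeq2 called 44 genes, library totals 4 and the 2 groups alone 6. Without DP replicates 2 and 3, chosen after the data were seen, 1 DP library remains and is assumed to vary like the other groups, and 116 genes and 1 member were called between DP and SPF.

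With a replicate block, 7 genes were called between DP and SPR in the fit of 9 libraries and 324 genes and 2 members in the paired fit of 6. With 1 pair left out, the paired fit called 120 to 447 genes and 0 to 2 members, and its log2 fold change ranged from -0.264 to 0.189 for Stat3, -0.114 to 0.169 for Stat5b, -0.239 to 0.0499 for Stat6 and -0.132 to 0.0855 for Cish. The genes called were 130, 447 and 120 without pairs 1, 2 and 3. The sign differed from the fit of 9 libraries for Stat5b without pairs 1 and 3 (-0.114 and -0.062), for Stat3 and Stat6 without pair 2 (0.19 and 0.050) and for Cish without pair 3 (0.085). Stat5b, just below 0 in the paired fit, was 0.17 without pair 2. No other member's call changed with the block.

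With 1 library left out, the counts called were 827 to 2054 genes and 2 to 3 members between SPR and SPF, 551 to 1818 genes and 1 to 3 members between DP and SPF, and 1 to 6 genes and 0 members between DP and SPR. Signs also changed for uncalled members. For SPR over SPF the log2 fold change ran from -0.356 to 0.18 for Stat4, -0.131 to 0.234 for Socs1, -0.134 to 1.03 for Socs2 and -0.0783 to 0.74 for Cish. For DP over SPF it ran from -0.137 to 0.21 for Stat4 and -0.111 to 0.713 for Cish. For DP over SPR it ran from -0.261 to 0.0918 for Stat3, -0.148 to 0.366 for Stat4, -0.0987 to 0.158 for Stat5b, -0.283 to 0.0564 for Stat6 and -0.125 to 0.116 for Cish.

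Changes near 0 also switched sign elsewhere. Socs1 in SPR over SPF was -0.0049 with DESeq2, -0.0050 with RLE factors and -0.0079 with filterByExpr. Stat5b in DP over SPR was -0.0026 with DESeq2, -0.0014 with RLE factors, -0.0011 with the block in 9 libraries and -0.0045 in the paired fit. With library totals, Stat6 and Cish in DP over SPR were 0.0063 and 0.022. Without DP replicates 2 and 3 they were 0.32 and 0.14, and Stat6 in DP over SPF was 0.21.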

Other observations

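Socs4, a relative of the SOCS members, stood at 3.79, 12.7 and 10.7 CPM in DP against 2.79 to 3.87 CPM in SPR and 3.63 to 6.51 CPM in SPF. A single count was worth 0.421, 0.409 and 0.669 CPM in DP replicates 1, 2 and 3, so these levels rest on few counts. Socs4 passed the filter only through DP replicates 2 and 3, and its level in DP replicate 1 lay within the SPR range. It did not pass the test between DP and SPR (paired adjusted p = 0.144 from edgeR), and DP replicates 2 and 3, where it was high, were also those high in mt-Rnr2, whose part in this was not tested.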
